A study of Mus musculus with 24 samples.

Results

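The proteasome subunit genes of the mouse were taken as the genes whose symbol is Psma, Psmb, Psmc or Psmd followed by a number. Of the 24537 genes in the deposited table, 38 were chosen in this way, 0 of them pseudogenes, and 1 further gene with such a symbol was left out by the rule and is not reported here. By role, 16 belonged to the core particle, 17 to the regulatory cap and 3 were chaperones that help to assemble the cap. The remaining 2 were the tissue-specific variants Psma8 and Psmb11. The proteasome is the barrel-shaped protease that degrades ubiquitin-tagged proteins. Its core is built of rings of alpha and beta subunits, and the protease sites sit on a few of the beta subunits. The cap binds ubiquitin, removes it, unfolds the substrate with a ring of ATPases and feeds it into the core. In lymphocytes, and under interferon in many cells, immune beta subunits replace constitutive catalytic ones, and the altered particle cuts proteins into peptides suited to display on MHC class I.

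Mouse CD8+ T cells activated in vitro were profiled by RNA-seq in 8 groups of 3 libraries each. The groups were a control, the unconjugated bile acids UDCA, LCA, DehydroLCA, IsoLCA and IsoAlloLCA, each at 50 µM, and the conjugated bile acids TCDCA and TCA, each at 100 µM. The series' design text puts the exposure at 24 h, whereas the treatment protocol calls it overnight. Nothing in the labels says whether the control received vehicle, which strain or activating stimulus was used, or whether the replicates came from separate mice or cultures, so p-values measure only the spread between these libraries, which may be technical. The series asks how bile acids alter gene expression in T cells, and each acid was compared with the same 3 control libraries, so the 7 comparisons with control share their reference. In bulk RNA, fewer cells of a type and less RNA per cell cannot be told apart.

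Counts assigned to genes ran from 25998051 to 41024340.5 per library. The share of each library counted in exons ran from 75.6% to 84.7%, and was lowest in the IsoAlloLCA group (78.3% ± 2.78, SD, n = 3) against 82.6% ± 1.37 in control. Every library carried the markers of CD8+ T cells, with Cd4 at no more than 1.16 CPM, Ms4a1 of B cells at no more than 0.304 CPM, and Lyz2, Csf1r and Adgre1 of myeloid cells at no more than 0.335 CPM. Other markers on the same lists ran higher. Cd79b of B cells lay at 3.33 to 5.84 CPM and Cd79a at up to 0.469 CPM. Itgam and Cd14 of myeloid cells reached 0.546 and 0.372 CPM. CPM here means a gene's count scaled to a common library size, after TMM, edgeR's correction for library composition. The proteasome genes together held 0.505% to 0.653% of the counts.

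The promoters of the catalytic subunits other than Psmb7 are shown first, because the comparisons below turn on immune and constitutive subunits moving by different amounts. They were read from RefSeq's table of mouse gene starts on GRCm38.p6, which held 31 of the 38 members, and each line gives the 250 bases before the start in the direction of transcription. Capitals mark a match to either of these motifs: TGACNNNGC, the core of the antioxidant response element that NRF1 and NRF2 bind, or CCAAT. All motifs were searched on both strands. Psmb9 lies at chr17:34187331-34187580 on the minus strand, Psmb10 at chr8:105938393-105938642 on the minus strand, Psmb6 at chr11:70525107-70525356 on the plus strand and Psmb5 at chr14:54617996-54618245 on the minus strand. Psmd12, a lid gene that holds the antioxidant motif, lies at chr11:107479278-107479527 on the plus strand.

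Psmb9: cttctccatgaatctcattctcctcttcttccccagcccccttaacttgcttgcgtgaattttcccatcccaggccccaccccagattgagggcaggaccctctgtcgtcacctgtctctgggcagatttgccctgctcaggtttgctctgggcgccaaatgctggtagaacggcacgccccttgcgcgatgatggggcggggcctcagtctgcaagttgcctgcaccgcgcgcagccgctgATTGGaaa
Psmb10: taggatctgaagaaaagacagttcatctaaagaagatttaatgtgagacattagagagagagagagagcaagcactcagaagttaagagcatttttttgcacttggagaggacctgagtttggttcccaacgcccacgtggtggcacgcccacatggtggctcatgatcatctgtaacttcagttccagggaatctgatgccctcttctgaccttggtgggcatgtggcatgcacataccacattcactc
Psmb6: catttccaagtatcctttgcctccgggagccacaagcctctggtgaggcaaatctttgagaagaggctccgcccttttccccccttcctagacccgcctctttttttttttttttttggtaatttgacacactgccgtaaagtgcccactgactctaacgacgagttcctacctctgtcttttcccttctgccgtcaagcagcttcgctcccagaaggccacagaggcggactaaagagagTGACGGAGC
Psmb5: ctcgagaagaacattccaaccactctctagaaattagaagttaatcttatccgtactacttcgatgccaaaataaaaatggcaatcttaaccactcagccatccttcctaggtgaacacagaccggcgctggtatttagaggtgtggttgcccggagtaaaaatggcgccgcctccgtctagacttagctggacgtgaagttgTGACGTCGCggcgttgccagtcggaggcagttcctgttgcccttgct
Psmd12: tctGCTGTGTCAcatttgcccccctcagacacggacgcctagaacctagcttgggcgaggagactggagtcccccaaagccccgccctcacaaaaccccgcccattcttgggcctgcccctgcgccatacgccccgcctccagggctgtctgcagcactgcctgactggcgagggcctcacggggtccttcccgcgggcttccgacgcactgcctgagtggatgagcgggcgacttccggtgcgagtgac

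Among the constitutive and immune catalytic genes shown, Psmb6 and Psmb5 held the antioxidant motif close to their start, Psmb9 held a CCAAT and Psmb10 held none of the motifs searched. No match was recorded for Psmb7, the constitutive catalytic gene not shown, so the antioxidant motif was not found in every constitutive gene. Over the members, TGACNNNGC occurred in 5 of 31 windows (16.1%: Psmb5, Psmb6, Psmc6, Psmd9 and Psmd12), and in 10.2% of all 32851 windows of this length. CCAAT occurred in 12 of 31 (38.7%) against 33.8% of all windows. The IRF element motif, linked to interferon, occurred in 3 (9.68%: Psmb3, Psmd4 and Psmd9) against 2.98%, and the STAT motif TTCNNNGAA in 0 against 7.02%. No match of one motif overlapped a match of another in the members. A match is a description of the letters, not a site shown to be bound.

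In control cells the members of the core and cap were all well expressed. Per transcript length, they ranged over 3.96-fold, from 67.9 ± 1.85 RPKM for Psmb10 (SD, n = 3, as for all levels below) to 269 ± 16.7 RPKM for Psma2, an alpha ring subunit. The median was 172.8 RPKM for the 16 core genes and 110.8 RPKM for the 17 cap genes. Among the cap genes the level per length ran from 75.9 ± 3.05 RPKM for Psmd11 to 156 ± 5.57 RPKM for Psmd8, both lid subunits. Neighbours in this order mostly lay within each other's spread, as the bar chart of control levels shows. The catalytic genes did not sit at one level: the immune Psmb9 had 191 ± 5.63 RPKM and its constitutive counterpart Psmb6 had 150.0 ± 8.50, while the immune Psmb10 had 67.9 ± 1.85 and its counterpart Psmb7 had 171 ± 10.97. Psmb5, the third constitutive catalytic subunit, had 145 ± 7.69 RPKM. The assembly chaperones were lower, at 28.3 ± 0.914 RPKM for Psmd5, 16.9 ± 0.513 for Psmd10 and 12.9 ± 0.384 for Psmd9.

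**Figure D1:**
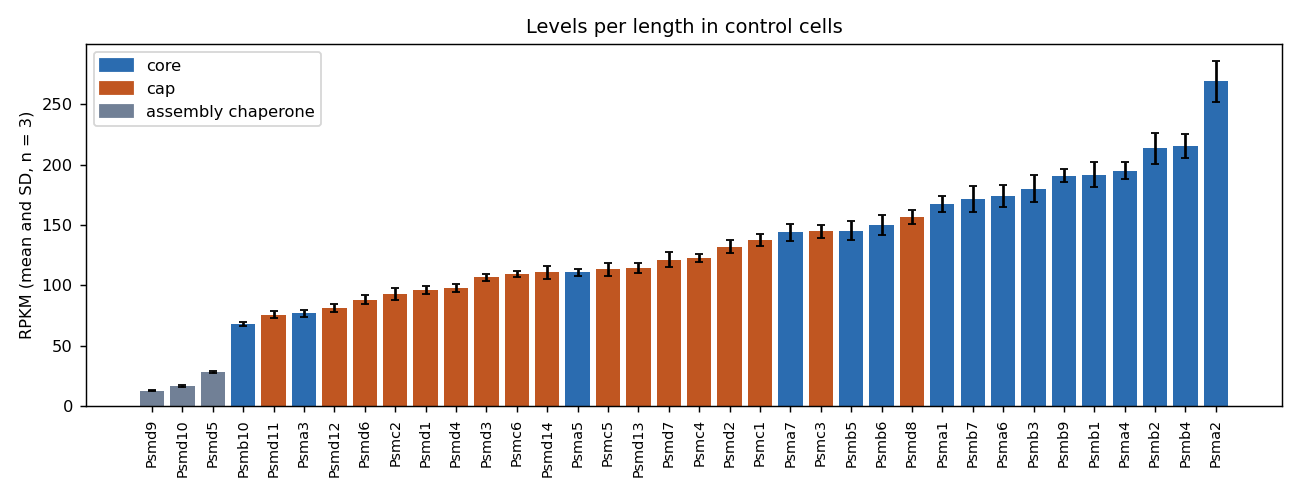
Level per transcript length (RPKM) of each core, cap and assembly chaperone gene in the control group, as mean with SD over 3 libraries, in rising order. Psma2 is the highest core gene, Psmb10 the lowest, and the 3 chaperones lie below every core and cap gene.

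The counts behind these values are high. Core and cap genes had 1651 to 16302 counts in a library, and the coefficient of variation over the 3 control libraries ran from 2.17% to 6.40% (median 4.04%). Psma8, a variant of the alpha ring known from testis, had 15 to 46 counts in a library and was tested. Psmb11, the variant catalytic subunit of thymic cortical epithelium, had 0 to 4 counts, did not pass the filter on low counts and was not tested, which leaves 37 tested members. The transcript spans of 4 members overlap another gene in the table: Psma4 and Psmd1 overlap AY074887 and Htr2b on the opposite strand, and Psma6 and Psmb5 overlap the microRNA genes Mir1198 and Mir686. Reads of such neighbours cannot be told apart where strand was not used, and no source used here gives the strand setting. AY074887 stood at 11.4 CPM in control and Htr2b at 0.150 CPM.

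Summed over the 38 members, the level was lowest under IsoAlloLCA. The control libraries held 6009, 6124 and 6494 CPM in these genes, and the IsoAlloLCA libraries 5529, 4802 and 5188 CPM, all below the control range. The mean sum was 83.3% of control under IsoAlloLCA, and was 84.7% of control for the core genes and 81.8% for the cap genes. These shares depend on the scaling. Without TMM, on library size alone, they were 87.2%, 88.6% and 85.5%. LCA libraries held 6180, 5866 and 6017 CPM, which overlaps the control range, with the core sum at 93.8% of control and the cap sum at 99.3%. On library size alone the LCA core sum was 96.3% of control and the cap sum 101.9%. In the other 5 groups the mean of all members lay between 97.4% (TCA) and 103.7% (UDCA) of control, and each group overlapped the control libraries. These sums are given as a description, without a test.

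**Figure D2:**
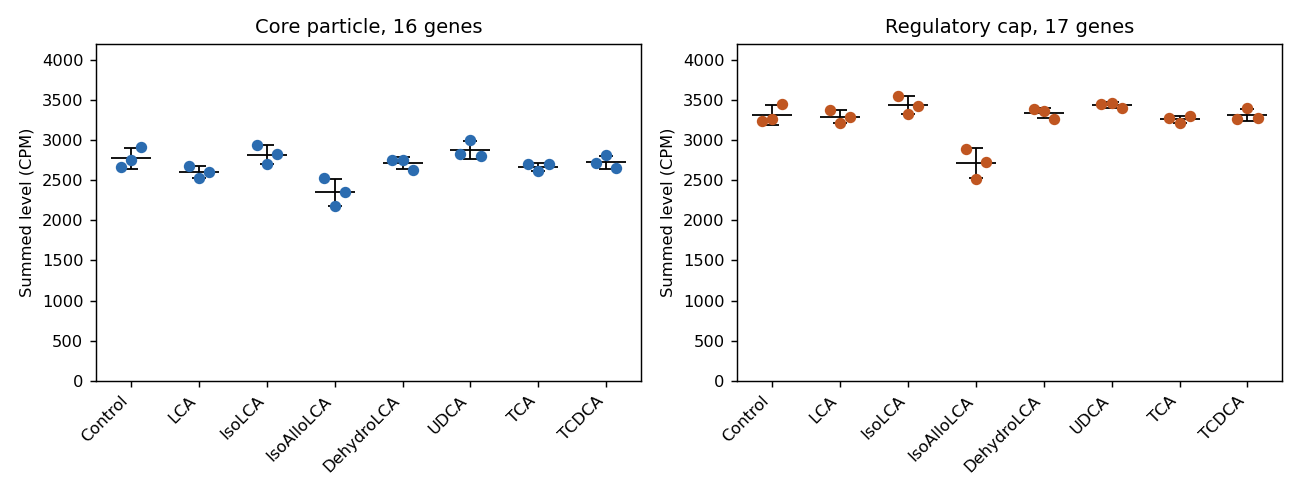
Summed level (CPM) of the 16 core genes and the 17 cap genes in each of the 24 libraries, with the mean and SD of each group of 3. The IsoAlloLCA libraries lie below all control libraries in both panels, and the other groups overlap control in the cap panel.

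Under IsoAlloLCA nearly every gene of the particle fell. By edgeR's quasi-likelihood test with Benjamini-Hochberg adjustment over the 13044 genes tested (called at an adjusted p under 0.05), 33 of 37 tested members fell and 0 rose, where 27.8% of all tested genes fell and 30.6% rose. The falls covered 15 of 16 core genes, 16 of 17 cap genes, the chaperone Psmd5 and Psma8. In size they were modest: the median log2 fold change was -0.23 in the core and -0.28 in the cap, against 0.03 over all genes. In 32 members the 3 IsoAlloLCA libraries lay below all 3 control libraries, which 28.5% of all genes did.

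Among core and cap genes the largest falls were in the lid. Psmd3, a structural lid subunit, stood at 225, 223 and 234 CPM in control and at 167, 151 and 164 CPM under IsoAlloLCA, a log2 fold change of -0.50 ± 0.04 (SE, edgeR adjusted p = 1.49e-11). Psmd7, the lid partner of the deubiquitinase subunit Psmd14, stood at 185, 190.1 and 204 CPM in control and at 147, 126 and 135 CPM (-0.50 ± 0.05, edgeR adjusted p = 2.03e-09). The treated libraries of both genes lay well below the control libraries, with no overlap. Psmd1, a scaffold of the base, fell from 306, 304 and 323 CPM to 250.1, 213 and 239 CPM (-0.41 ± 0.04, edgeR adjusted p = 1.71e-08). Of the other cap genes, the 6 base ATPases Psmc1 to Psmc6, which unfold substrates, all fell, with log2 fold changes of -0.33 to -0.18, and the deubiquitinase Psmd14 fell by 18.9%. The ubiquitin receptor Psmd4 fell by 8.50%, the smallest called change in the cap. Psmd8, a lid subunit, was the exception among cap genes and is named here because of its value: it stood at 230.4, 231 and 245 CPM in control and 249, 213 and 230.2 CPM under IsoAlloLCA, overlapping, with a 95% interval of the log2 fold change of -0.12 to 0.06.

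In the core, all 7 alpha ring genes fell, by log2 fold changes of -0.30 to -0.22. The immune catalytic genes fell furthest in the core. Psmb10 went from 83.99, 84.5 and 88.2 CPM in control to 64.7, 60.8 and 61.4 CPM (-0.46 ± 0.04, edgeR adjusted p = 3.22e-09), and Psmb9 from 147, 154 and 156 CPM to 127, 111 and 116 CPM (-0.37 ± 0.05, edgeR adjusted p = 1.06e-06). Neither gene's treated libraries overlapped control. The constitutive catalytic genes fell too, with smaller changes: Psmb7 (-0.21 ± 0.06), Psmb5 (-0.18 ± 0.05) and Psmb6 (-0.14 ± 0.05), with edgeR adjusted p of 0.00419, 0.00329 and 0.014. Psmb6 stood at 148, 150.4 and 164 CPM in control and 148, 135 and 136 CPM under IsoAlloLCA, and this call did not hold when Control replicate 3, IsoAlloLCA replicate 2 or IsoAlloLCA replicate 3 was left out (edgeR adjusted p of 0.0826, 0.067 and 0.0536) or in a fit of the 6 libraries alone (0.0511, and 0.00323 to 0.0826 over its alternatives). The Psmb7 call was lost without IsoAlloLCA replicate 2 (edgeR adjusted p = 0.0517, and 0.000399 to 0.0517 over its alternatives). Among the beta subunits with no protease site, Psmb2 fell (-0.33 ± 0.05, edgeR adjusted p = 1.1e-06), while Psmb1, the 1 core gene without a call and named for that, stood at 185, 201 and 205 CPM in control and 198, 177 and 189 CPM (95% interval -0.17 to 0.03).

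The assembly chaperones split. Psmd5 fell, from 55.7, 57.3 and 59.4 CPM to 54.4, 47.8 and 51.5 CPM (-0.17 ± 0.05, edgeR adjusted p = 0.00318), whereas Psmd9 (-0.00 ± 0.06) and Psmd10 (0.09 ± 0.06) did not pass the test. Psma8 fell as well (-0.61 ± 0.25, edgeR adjusted p = 0.0363), but its libraries overlapped at 0.96, 0.898 and 0.884 CPM in control and 0.484, 0.434 and 0.93 CPM. The count of called members was 30 to 33 with any 1 library left out and 32 with DESeq2. The 3 IsoAlloLCA libraries had 81.2%, 75.6% and 78.1% of their reads in exons, against 81.1% to 83.8% in control. The library with 81.2%, inside the control range, had a summed member level of 5529 CPM, below the lowest control of 6009, and the library with 75.6% had the lowest sum, 4802 CPM. Within control the sum also rose with the exon share, from 6009 CPM at 81.1% to 6494 CPM at 83.8%. The order of the sums followed the order of the exon shares within every other group but TCA. The part of the exon share in the member results was not tested. A list of 3 NK cell markers summed to 14.9 to 17.3 CPM under IsoAlloLCA and 26.3 to 27.6 CPM in control, nearly all from Eomes, which activated CD8+ T cells also express. Ncr1, which defines NK cells, did not exceed 0.521 CPM in any library, and the third marker, Klrb1c, did not exceed 1.12 CPM.

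**Figure D3:**
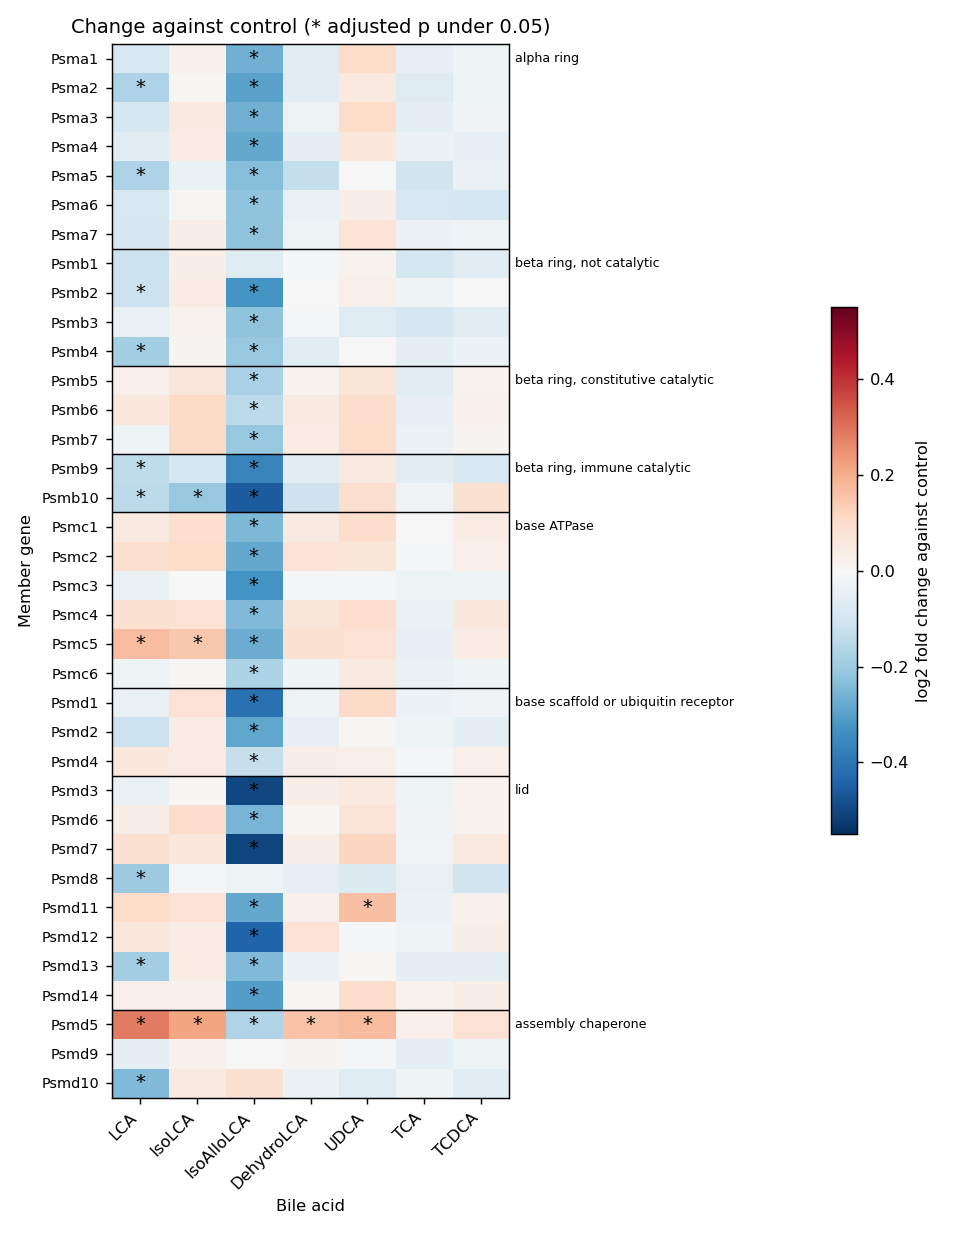
Log2 fold change against control (colour scale) of each core, cap and assembly chaperone gene (lines, grouped by role) under each of the 7 acids (columns), with a star where edgeR's adjusted p was under 0.05. The IsoAlloLCA column is starred in all but Psmb1, Psmd8, Psmd9 and Psmd10, while the TCA and TCDCA columns have no star.

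Under LCA more core genes than cap genes fell. Of the 37 tested members 9 fell and 2 rose, where 18.8% of all tested genes fell and 17.7% rose (edgeR, as above), so the number called is close to the background. Its distribution was uneven: 6 of 16 core genes fell and 0 rose, and of 17 cap genes 2 fell and 1 rose. The median log2 fold change was -0.09 in the core and 0.03 in the cap, a difference of -0.13, against 0.01 over all genes. That difference is a description of these genes and was not tested. It stayed at -0.13 with the immune subunits left out of the core, under DESeq2, under RLE size factors, with the replicate number as a block, and after the correction for transcript length and GC content. That correction changed the split of calls to 8 higher and 8 lower, and the split was 4 and 5 without Control replicate 3 and 3 and 6 without LCA replicate 2.

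Psmb4, a beta ring subunit with no protease site, stood at 196, 197 and 214 CPM in control and 184, 170.1 and 179 CPM under LCA (-0.19 ± 0.05, edgeR adjusted p = 0.00442). The alpha ring genes Psma5 (-0.17 ± 0.05, edgeR adjusted p = 0.00752) and Psma2 (-0.17 ± 0.05, edgeR adjusted p = 0.0114) also fell. In each of these the LCA libraries lay below all control libraries. Psma5 stood at 131, 133 and 138 CPM in control and 126, 112 and 119 CPM under LCA, and lost its call without LCA replicate 2 (edgeR adjusted p = 0.055, and 0.00279 to 0.055 over its alternatives). Psma2 stood at 236, 250.4 and 268 CPM in control and 228, 220.1 and 224 CPM under LCA, and lost its call without Control replicate 3 (edgeR adjusted p = 0.0809, and 0.00331 to 0.0809 over its alternatives). The remaining core calls were Psmb2 and both immune genes.

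Psmb10 was at 77.2, 78.3 and 77.1 CPM under LCA (-0.14 ± 0.04, edgeR adjusted p = 0.0124) and Psmb9 at 141, 138 and 136 CPM (-0.14 ± 0.05, edgeR adjusted p = 0.034). Both sets of libraries lay below control. The Psmb10 call was lost without Control replicate 3 (edgeR adjusted p = 0.0566, and 0.00727 to 0.0566 over its alternatives). The Psmb9 call was lost without Control replicate 2, Control replicate 3, LCA replicate 2 or LCA replicate 3 and after the GC and length correction, with and without the replicate block (edgeR adjusted p of 0.0749 to 0.161, and 0.00964 to 0.161 over its alternatives). The constitutive counterparts did not pass: the 95% interval of the log2 fold change was -0.04 to 0.16 for Psmb6, -0.14 to 0.10 for Psmb7 and -0.07 to 0.13 for Psmb5. With the GC and length correction Psmb6 was called higher (edgeR adjusted p = 0.0285, and 0.0285 to 0.805 over its alternatives).

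In the cap, the lid genes Psmd8 and Psmd13 fell and the ATPase Psmc5 rose. Psmd8 went from 230.4, 231 and 245 CPM to 213, 197 and 204 CPM (-0.20 ± 0.04, edgeR adjusted p = 0.000945) and Psmd13 from 172, 177 and 184 CPM to 160.4, 149 and 156 CPM (-0.19 ± 0.05, edgeR adjusted p = 0.00335). Psmc5 went from 139, 140.2 and 151 CPM to 165, 159.9 and 158 CPM (0.17 ± 0.04, edgeR adjusted p = 0.00399). None of these groups overlapped. The chaperones had the largest called changes of all members under LCA, in opposite directions. Psmd5 rose from 55.7, 57.3 and 59.4 CPM to 69.6, 71.2 and 69.1 CPM (0.28 ± 0.04, edgeR adjusted p = 2.12e-05), and Psmd10, also known as gankyrin, fell from 24.1, 23.9 and 25.3 CPM to 21.4, 19.9 and 20.6 CPM (-0.24 ± 0.06, edgeR adjusted p = 0.00135). Psmd9 did not pass (-0.06 ± 0.06). The LCA libraries had 80.7% ± 1.52 of reads in exons (SD, n = 3) against 82.6% ± 1.37 in control, and 4 stromal or epithelial markers summed to 34.7 to 40.6 CPM against 48.4 to 54.8 CPM, mostly from Pecam1. Col1a1 and Col1a2 did not exceed 0.372 CPM in any library, while Epcam, the remaining marker of that list, lay at 2.68 to 4.38 CPM. The 4 B cell markers summed to 4.19 to 4.46 CPM against 5.88 to 6.38 CPM, mostly from Cd79b. They also lay below control under IsoAlloLCA (4.08 to 5.08 CPM) and IsoLCA (5.09 to 5.62 CPM). The same held for DehydroLCA (5.28 to 5.73 CPM) and TCDCA (5.04 to 5.58 CPM), while UDCA and TCA overlapped control. The part of the exon share in the LCA result was not tested.

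**Figure D4:**
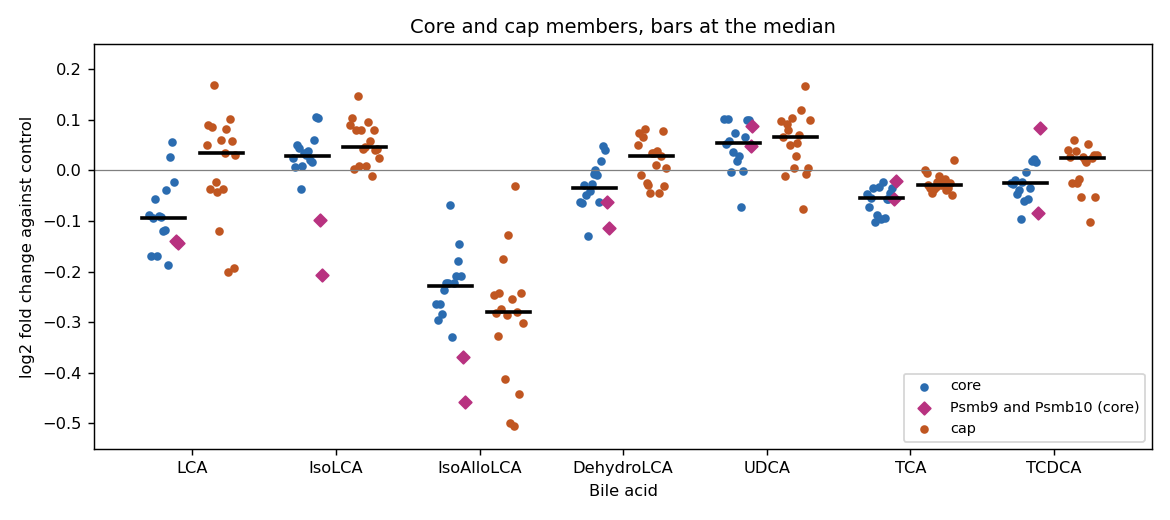
Log2 fold change against control of each core gene and each cap gene (points) under the 7 acids, with bars at the median of each set and Psmb9 and Psmb10 as diamonds. Both sets lie below 0 under IsoAlloLCA, and under LCA the core median is at -0.09 and the cap median at 0.03.

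The other 5 acids changed few members. Under IsoLCA 2 rose and 1 fell of 37, where 3.73% of all genes rose and 6.12% fell. The fall was Psmb10, which went from 83.99, 84.5 and 88.2 CPM in control to 76.6, 74.01 and 71.9 CPM (-0.21 ± 0.04, edgeR adjusted p = 0.00214), with no overlap. The other immune gene, Psmb9, was at 146, 140.5 and 139.9 CPM, below every control library but not past the test (95% interval -0.20 to 0.01, edgeR adjusted p = 0.266). It was called with the GC and length correction and the replicate block together (edgeR adjusted p = 0.0412, and 0.0412 to 0.478 over its alternatives). The rises were the chaperone Psmd5, at 67.7, 65.1 and 67.6 CPM (0.22 ± 0.04, edgeR adjusted p = 0.00177), and the ATPase Psmc5, at 165, 152 and 159 CPM (0.15 ± 0.04, edgeR adjusted p = 0.0313). Psmc5 lost its call in a fit of the 6 libraries alone and without Control replicate 1, Control replicate 2, IsoLCA replicate 1 or IsoLCA replicate 3 (edgeR adjusted p of 0.0852 to 0.179, and 0.00776 to 0.179 over its alternatives).

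Under DehydroLCA 1 member rose and 0 fell, where 2.41% of all genes rose and 3.41% fell. It was Psmd5 again, at 66.8, 64.3 and 61.2 CPM (0.16 ± 0.05, edgeR adjusted p = 0.0366). The call was lost without Control replicate 1, Control replicate 2, DehydroLCA replicate 1 or DehydroLCA replicate 2, with 0 members then called, and also under RLE size factors and without the filter on low counts (edgeR adjusted p of 0.0541 to 0.209, and 0.0112 to 0.209 over its alternatives). Under UDCA 2 rose and 0 fell, where 9.18% of all genes rose and 10.7% fell. They were Psmd5, at 65.4, 66.98 and 61.97 CPM (0.17 ± 0.05, edgeR adjusted p = 0.00791), and the lid gene Psmd11, which went from 128, 128 and 137 CPM to 145, 151 and 146 CPM (0.17 ± 0.04, edgeR adjusted p = 0.00845). Neither overlapped control. Both UDCA calls were lost, leaving 0, without Control replicate 1 (edgeR adjusted p of 0.0564 for Psmd5 and 0.0536 for Psmd11) or UDCA replicate 2 (0.0649 and 0.0575), and 4 members were called without Control replicate 3. Over their alternatives the edgeR adjusted p ran from 0.00414 to 0.0649 and from 0.000545 to 0.0575. With the GC and length correction, 9 members were called under UDCA, all higher, and 3 under DehydroLCA, 1 higher and 2 lower. Psmb10 was among them in both, called lower under DehydroLCA (edgeR adjusted p = 0.0447, and 0.0297 to 0.375 over its alternatives) and higher under UDCA (0.0416, and 0.0321 to 0.834), and Psmb6 was called higher under UDCA (0.0291, and 0.029 to 0.553).

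Neither conjugated acid changed a member by edgeR's quasi-likelihood test. Under TCA 0 of 37 were called, where 0.437% of all genes were, and 1 had an unadjusted p under 0.05. Under TCDCA 0 were called, where 13.1% of all genes were, and 1 had an unadjusted p under 0.05. DESeq2 called 0 under both. For Psmb9 and Psmb10 the 95% interval of the log2 fold change was -0.16 to 0.05 and -0.11 to 0.07 under TCA, and -0.19 to 0.02 and -0.00 to 0.17 under TCDCA. Both Psmb9 intervals hold the value of -0.14 seen under LCA, and neither Psmb10 interval does. Set side by side, Psmd5 was called higher under LCA, IsoLCA, DehydroLCA and UDCA and lower under IsoAlloLCA, and had log2 fold changes of 0.03 ± 0.05 under TCA and 0.08 ± 0.05 under TCDCA, all against the same 3 controls.

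The immune subunits were compared with the constitutive subunits they replace as ratios of their levels per length within each library, which need no scaling between libraries. For Psmb9 to Psmb6, where the immune Psmb9 takes the place of Psmb6, the control libraries stood at 1.28, 1.32 and 1.22. The ratio was 1.13, 1.14 and 1.06 under LCA, 1.11, 1.16 and 1.05 under IsoLCA, and 1.11, 1.06 and 1.10 under IsoAlloLCA. All of these libraries lay below the lowest control library, and so did those of DehydroLCA (1.16, 1.18 and 1.19) and TCDCA (1.22, 1.16 and 1.17), whose highest library lay just below the lowest control library. TCA (1.21, 1.29 and 1.28) and UDCA (1.24, 1.29 and 1.15) overlapped control.

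The ratio of Psmb10 to Psmb7, at the trypsin-like site, was 0.413, 0.395 and 0.382 in control. It was lowest under IsoLCA, at 0.310, 0.344 and 0.308, followed by IsoAlloLCA at 0.322, 0.362 and 0.320, DehydroLCA at 0.353, 0.357 and 0.358, and LCA at 0.346, 0.382 and 0.368. Neighbours in this order overlapped, and the IsoLCA libraries lay below all those of DehydroLCA and LCA. The highest LCA library lay just below the lowest control library. TCA (mean 0.400), TCDCA (0.416) and UDCA (0.392) overlapped control. An exact two-sided permutation test of 3 libraries against 3 cannot give less than p = 0.1, so none of the 14 ratio tests could pass, and those whose groups did not overlap had p = 0.1 (0.156 after Benjamini-Hochberg adjustment). In IsoLCA and DehydroLCA, Psmb6 and Psmb7 themselves did not pass edgeR's test, with log2 fold changes of 0.11 ± 0.05 and 0.10 ± 0.06 under IsoLCA and 0.05 ± 0.05 and 0.04 ± 0.06 under DehydroLCA.

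**Figure D5:**
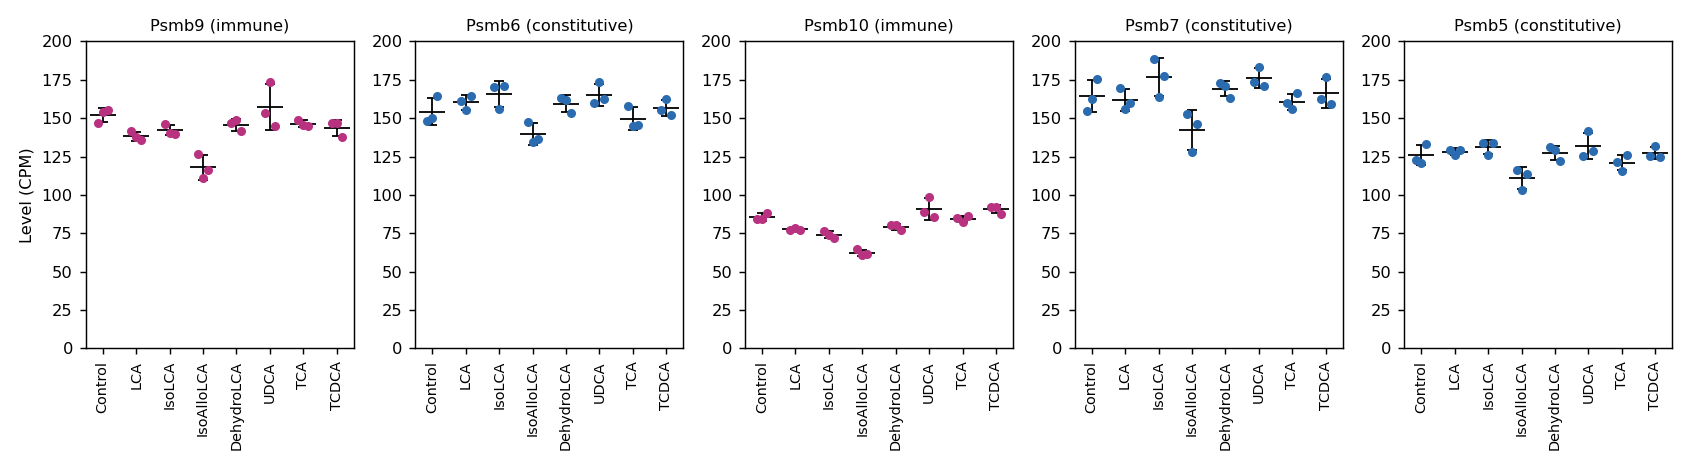
Level (CPM) of the immune catalytic genes Psmb9 and Psmb10 and of the constitutive Psmb6, Psmb7 and Psmb5 in each library, with the mean and SD of each group of 3. Psmb10 lies below control under LCA, IsoLCA, IsoAlloLCA and DehydroLCA, and the constitutive genes lie below control under IsoAlloLCA.

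Direct comparisons were made between acids of equal dose, in 6 pairs, each fitted over all genes, and p-values were adjusted over the genes of each pair. LCA, IsoLCA, IsoAlloLCA and DehydroLCA share a steroid nucleus: IsoLCA is the epimer of LCA at the carbon that carries the hydroxyl group, IsoAlloLCA is in addition the epimer at the junction of the first rings, and DehydroLCA has a ketone in place of that hydroxyl. UDCA carries an added hydroxyl group relative to LCA, and TCA an added hydroxyl group relative to TCDCA.

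IsoAlloLCA and IsoLCA, which differ at the ring junction, differed in 33 of 37 members, all lower under IsoAlloLCA, where 28.1% of all genes were lower and 31.7% higher. Psmd3 (-0.51 ± 0.04, edgeR adjusted p = 1.06e-11), Psmd7 (-0.56 ± 0.05, 2.77e-10) and Psmd1 (-0.49 ± 0.04, 7.47e-10) led. Psmd3 stood at 228, 227 and 231 CPM under IsoLCA, inside its control range, and at 167, 151 and 164 CPM under IsoAlloLCA. Both immune genes were lower too: Psmb9 by -0.27 ± 0.05 (edgeR adjusted p = 6.78e-05) and Psmb10 by -0.25 ± 0.04 (edgeR adjusted p = 3.08e-05) on the log2 scale. So were Psmb6 (-0.25 ± 0.05), Psmb7 (-0.31 ± 0.06) and Psmb5 (-0.24 ± 0.05). Against LCA, IsoAlloLCA had 30 members lower and 2 higher, where 29.1% of all genes were lower and 32.3% higher. The leading genes were Psmd3 (-0.46 ± 0.04, edgeR adjusted p = 3.36e-11), Psmd7 (-0.59 ± 0.05, 8.13e-11) and the lid gene Psmd12 (-0.50 ± 0.05, 2.37e-09). The 2 higher members, named for that, were Psmd10 (0.33 ± 0.06) and Psmd8 (0.17 ± 0.04).

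The hydroxyl epimers IsoLCA and LCA differed in 12 members, all higher under IsoLCA, where 15.8% of all genes were higher and 14.6% lower, and after the GC and length correction 8 were higher and 1 lower. They comprised 7 core genes, 4 cap genes and the chaperone Psmd10. Psmd10 stood at 21.4, 19.9 and 20.6 CPM under LCA and 26.05, 24.1 and 25.5 CPM under IsoLCA (0.29 ± 0.06, edgeR adjusted p = 0.000334). Psmd13 (0.24 ± 0.05, edgeR adjusted p = 0.000828) and Psmd8 (0.19 ± 0.04, 0.00228) followed. The libraries of these 3 genes did not overlap between the acids. The immune genes were not among them: the 95% interval of the difference was -0.06 to 0.14 for Psmb9 and -0.15 to 0.03 for Psmb10. After the GC and length correction Psmb10 was the 1 lower gene (edgeR adjusted p = 0.0264, and 0.0188 with the replicate block as well). The count fell to 4 without IsoLCA replicate 1 and to 5 without LCA replicate 2.

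UDCA and LCA differed in 14 members, all higher under UDCA, where 14.8% of all genes were higher and 12% lower, and after the GC and length correction 14 were higher and 2 lower. Of these, 10 were core genes, and both immune genes were included. Psmb10 stood at 77.2, 78.3 and 77.1 CPM under LCA and 88.6, 98.7 and 85.3 CPM under UDCA (0.23 ± 0.04, edgeR adjusted p = 0.000289). Psma2 (0.22 ± 0.05, edgeR adjusted p = 0.00197) and Psma3 (0.20 ± 0.05, 0.00214) came next, and none of the 3 overlapped. Psmb9 was higher by 0.19 ± 0.05 (edgeR adjusted p = 0.0073), a call lost without UDCA replicate 2 (0.124, and 0.0011 to 0.124 over its alternatives). The count fell to 6 without LCA replicate 2 or UDCA replicate 2 and to 9 without LCA replicate 3. Psmb6 (-0.06 to 0.14), Psmb7 (0.00 to 0.24) and Psmb5 (-0.06 to 0.14), given by their 95% intervals, did not pass, but Psmb7 was called in a fit of the 6 libraries alone (edgeR adjusted p = 0.0297, and 0.0297 to 0.392 over its alternatives).

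DehydroLCA and LCA differed in 4 members, 3 higher and 1 lower under DehydroLCA, where 10.3% and 7.49% of all genes were, and under RLE size factors 3 were higher and 0 lower. They were Psmd10 (0.21 ± 0.06, edgeR adjusted p = 0.00978), Psmd8 (0.16 ± 0.04, 0.0161), Psmd13 (0.16 ± 0.05, 0.0232) and, lower, Psmd5 (-0.13 ± 0.04, 0.049). The count fell to 0 without LCA replicate 2 and to 1 without LCA replicate 3, DehydroLCA replicate 1 or DehydroLCA replicate 2, and was 8 in a fit of the 6 libraries alone. Each of the 4 calls was lost under at least 2 alternatives, with highest edgeR adjusted p of 0.0736 for Psmd10, 0.117 for Psmd8, 0.142 for Psmd13 and 0.208 for Psmd5. The immune genes did not pass, with 95% intervals of -0.03 to 0.18 for Psmb9 and -0.06 to 0.12 for Psmb10. TCA and TCDCA differed in 0 members by edgeR, where 3.61% of all genes differed, with 2 at an unadjusted p under 0.05 and 0 by DESeq2. For Psmb10 the 95% interval of TCA against TCDCA was -0.20 to -0.02, and for Psmb9 -0.08 to 0.13.

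Genes that act with the proteasome were followed in 5 lists, given here by counts of called genes, since the lists were chosen with results of these data known. The shares to read them against are those of all tested genes: 17.7% rose and 18.8% fell under LCA, 3.73% and 6.12% under IsoLCA, 30.6% and 27.8% under IsoAlloLCA, 2.41% and 3.41% under DehydroLCA, and 9.18% and 10.7% under UDCA, while 0.437% changed under TCA and 13.1% under TCDCA. The first list held the interferon-inducible cap Psme1 and Psme2, the nuclear cap Psme3, the large cap Psme4, and other cap subunits and inhibitors, 9 of them tested. Under IsoAlloLCA 7 of these 9 fell and 0 rose, with a median log2 fold change of -0.27 against 0.03 over all genes. Psme3 fell from 373 ± 13.6 CPM to 263 ± 18.6 CPM (-0.51 ± 0.04, edgeR adjusted p = 2.8e-10), the ubiquitin receptor Adrm1 by -0.31 ± 0.04 (edgeR adjusted p = 5.9e-07), Psme1 by -0.25 ± 0.04 and Psme2 by -0.27 ± 0.05 on the log2 scale. Under LCA 3 fell and 1 rose, led by a fall of Shfm1, a small lid protein (-0.30 ± 0.04, edgeR adjusted p = 7.91e-06), and a rise of Adrm1 (0.18 ± 0.04, edgeR adjusted p = 0.00122). The LCA fall of Psme1 was lost under 5 alternatives (edgeR adjusted p of 0.00759 to 0.101 over its alternatives). Psme2 did not pass under LCA, but was called higher after the GC and length correction (0.048, and 0.0354 to 0.981 over its alternatives). Under IsoLCA the 1 call was a fall of Psme1 (-0.13 ± 0.04, edgeR adjusted p = 0.0196, and 0.000349 to 0.082 over its alternatives, lost without Control replicate 2, Control replicate 3, IsoLCA replicate 2 or IsoLCA replicate 3 and in a fit of the 6 libraries alone). Under TCDCA it was a fall of Psme4 (-0.14 ± 0.04, edgeR adjusted p = 0.0165, and 0.00755 to 0.109 over its alternatives, lost without Control replicate 2 or TCDCA replicate 3), and under TCA there was none. DehydroLCA and UDCA each had 1 call, a rise of Adrm1 (0.14 ± 0.04 and 0.13 ± 0.04), with edgeR adjusted p of 0.0479 and 0.0273. The first was lost without any 1 of its 6 libraries, under RLE size factors, without the filter, with DESeq2 and after the GC and length correction (0.0203 to 0.221 over its alternatives), and the second without Control replicate 1, Control replicate 2, UDCA replicate 2 or UDCA replicate 3, without the filter and in a fit of the 6 libraries alone (0.00519 to 0.143). Psme1 did not pass under DehydroLCA in the fit of all libraries, but was called lower under 7 alternatives, among them DESeq2 (0.0223) and RLE size factors (0.0449, and 0.00486 to 0.186 over its alternatives).

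Of 6 tested genes of proteasome assembly and related factors, not all of them acting on the core, 4 fell under IsoAlloLCA. Among them were Psmg1 (-0.38 ± 0.06, edgeR adjusted p = 1.1e-05) and Psmg3 (-0.27 ± 0.06, 0.000471). Under LCA 2 fell and 1 rose. The LCA fall of Akirin2 was lost under 4 alternatives (edgeR adjusted p of 0.0188 to 0.113 over its alternatives). Pomp, the maturation factor of the core, fell under LCA from 140.5 ± 7.09 CPM to 108 ± 5.17 CPM (-0.38 ± 0.06, edgeR adjusted p = 9.02e-06). It fell under IsoAlloLCA too (-0.18 ± 0.06, edgeR adjusted p = 0.00928), a call lost without IsoAlloLCA replicate 2 (0.108) and in a fit of the 6 libraries alone (0.0617, and 0.000164 to 0.108 over its alternatives). Under the other 5 acids 0 of the 6 were called. Pomp under DehydroLCA (-0.16 ± 0.06) was called lower in a fit of the 6 libraries alone (0.0338) and after the GC and length correction (0.0398, and 0.0311 to 0.356 over its alternatives). Among 10 genes of the route by which NRF1 (Nfe2l1) induces proteasome genes, 6 rose and 1 fell under LCA (17.7% and 18.8% of all genes), with a median log2 fold change of 0.17 against 0.01 over all genes. Nfe2l1 itself rose from 138 ± 10.3 CPM to 191 ± 7.44 CPM (0.47 ± 0.05, edgeR adjusted p = 2.1e-08) and the related Nfe2l2 by 0.29 ± 0.04 (edgeR adjusted p = 1.95e-06). Under IsoAlloLCA 5 rose and 2 fell (30.6% and 27.8% of all genes): the protease Ddi2, which releases NRF1 from its precursor, fell (-0.31 ± 0.04, edgeR adjusted p = 5.35e-08), and Ngly1, which removes its glycans, rose (0.34 ± 0.04, edgeR adjusted p = 1.16e-07). Nfe2l1 did not pass under IsoAlloLCA (-0.11 ± 0.05, edgeR adjusted p = 0.0506) with TMM and the filter, but was called lower under RLE size factors (0.0235), without the filter (0.0252), with DESeq2 (0.0185) and without Control replicate 1 (0.00141, and 0.00141 to 0.228 over its alternatives). Nfe2l2 did not pass under IsoAlloLCA in the fit of all libraries without a block. It was called higher there with the replicate block (edgeR adjusted p = 0.0384) and after the GC and length correction (0.00816). So it was without IsoAlloLCA replicate 2 (0.0459) or replicate 3 (0.0365, and 0.00596 to 0.282 over its alternatives). Nfe2l2 rose under IsoLCA (0.21 ± 0.04, edgeR adjusted p = 0.000528) and TCDCA (0.21 ± 0.04, 0.000495), each time in a list count of 2 rises (with 1 and 2 falls). It also rose under DehydroLCA (0.14 ± 0.04, edgeR adjusted p = 0.0285), the 1 call there, and under UDCA (0.14 ± 0.04, 0.0102), where 2 rose and 1 fell. The DehydroLCA call was lost without Control replicate 2, Control replicate 3, DehydroLCA replicate 1 or DehydroLCA replicate 2, without the filter, with DESeq2 and in a fit of the 6 libraries alone (0.00587 to 0.15 over its alternatives), and the UDCA call without Control replicate 2, UDCA replicate 2 or the filter (0.00294 to 0.0567). Under TCA 0 of the 10 were called.

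Among 17 tested genes of ubiquitin, shuttle proteins and the unfoldase Vcp, 8 fell and 3 rose under IsoAlloLCA (27.8% and 30.6% of all genes). Uba1, the main ubiquitin-activating enzyme, fell from 636 ± 12.3 CPM to 495 ± 29.7 CPM (-0.36 ± 0.03, edgeR adjusted p = 2.34e-09). Under LCA 5 rose and 1 fell (17.7% and 18.8% of all genes), with Zfand5 (0.26 ± 0.04) and Ubqln4 (0.27 ± 0.05) leading. Under UDCA 2 rose and 2 fell. TCDCA had 1 rise and 1 fall, and IsoLCA, DehydroLCA and TCA had none. The TCDCA rise, of Zfand5, was lost under 5 alternatives (edgeR adjusted p of 0.0221 to 0.133 over its alternatives).

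The last list held 8 genes of peptide loading onto MHC class I and their interferon regulators. Irf1, a transcription factor that induces immune subunits, fell under LCA (-0.35 ± 0.04), IsoLCA (-0.50 ± 0.04), IsoAlloLCA (-0.19 ± 0.04) and DehydroLCA (-0.39 ± 0.04), with edgeR adjusted p of 1.14e-06, 1.11e-08, 0.000634 and 1.72e-06. Its level was 135 ± 5.26 CPM in control and 95.7 ± 2.92 CPM under IsoLCA. The peptide transporter Tap1 fell under LCA (-0.14 ± 0.04), IsoLCA (-0.20 ± 0.04) and DehydroLCA (-0.14 ± 0.04), with edgeR adjusted p of 0.00485, 0.000811 and 0.0259. The DehydroLCA call of Tap1 was lost without Control replicate 1, Control replicate 2 or any 1 of the 3 DehydroLCA libraries (edgeR adjusted p of 0.0678 to 0.107, and 0.00149 to 0.107 over its alternatives). In all, 0 rose and 2 fell under LCA, 0 and 3 under IsoLCA, 2 and 4 under IsoAlloLCA, and 0 and 3 under DehydroLCA. Set against the shares of all genes given above, the 2 falls under LCA and the 2 rises under IsoAlloLCA are near the background. Under IsoAlloLCA B2m, the light chain of MHC class I, rose (0.31 ± 0.05, edgeR adjusted p = 2.77e-06). UDCA had 1 rise, of the peptide-trimming enzyme Erap1, TCDCA 1 rise, of Nlrc5, and TCA no call. The Nlrc5 call was lost without Control replicate 2, Control replicate 3, TCDCA replicate 1 or TCDCA replicate 3 (edgeR adjusted p of 0.077 to 0.145, and 0.00268 to 0.145 over its alternatives).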

How the data were processed

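Bulk RNA-seq libraries of 8 groups, 3 replicates each, were grouped by their sample titles. Per the file headers, the authors deposited 1 HOMER table of exon counts against mm10, not normalized. Per the submitters' processing notes, STAR, HOMER, DESeq2 and GRCm38 were used. The sources used here give neither versions nor the strand setting. As deposited, the values are expected counts that move by 0.5, with 29.4% not whole. They were rounded up, since the planned test had assumed whole counts. RPKM was computed from the scaled counts and each gene's transcript length in the table.

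The quasi-likelihood test of edgeR 4.0.16 (glmQLFit, glmQLFTest, under R 4.3.3) was fitted to all 24 libraries at once, 1 coefficient per group, with TMM factors of 0.971 to 1.05. After edgeR's filter on low counts, 13044 genes were tested. There were 16 residual and 8.84 prior degrees of freedom, and the common biological coefficient of variation was 4.41%. The SE is the absolute log2 fold change divided by the square root of the F statistic, and 95% intervals were built from it. A gene was called at a Benjamini-Hochberg adjusted p under 0.05 over all genes tested. The fit was tested on simulated data, where it called 72% of 1.2-fold changes and 98% of 1.5-fold changes, and 5.03% of its calls were false. There 100 genes were changed by each fold, in LCA alone, among genes above a count floor. The libraries were drawn independently of each other. In the data far more genes were called (27.8% fell and 30.6% rose under IsoAlloLCA), so these rates need not hold for them. Changes smaller than 1.2-fold were not simulated. Ratios of subunits were compared by exact permutation.

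Depth was 25998051 to 41024340.5 counts per library (median 32852325). Replicates differed beyond sampling noise, so none was counted as a duplicate.

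The members, the gene lists and the rule for named genes were chosen with earlier results of these data known. Named were the catalytic genes, the chaperones, the 3 called core and 3 called cap members with the smallest adjusted p per acid (all where 5 or fewer were called), 3 per pair of acids, and the 2 called genes with the smallest adjusted p per list with 8 fixed genes. Alternatives were DESeq2 1.42.0, RLE size factors, no filter, rounding down, a fit of 6 libraries, a replicate block, each library left out and, chosen after seeing the data, a correction for GC content and length (99.5% of tested genes had a GC value). One gene that fits the symbol pattern and some genes of the lists are not reported here.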

Additional observations from a re-analysis of the deposited data

How the results depend on the processing

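No call of a named gene changed direction under any alternative. The 207 named gene results include those not called, which cannot lose a call, and 29 results lost theirs under at least 1 alternative. Counting each named gene result under each alternative, a call that the planned test had not made was gained 38 times. The number of proteasome genes called stayed within 1.5 times its value under every alternative for LCA, IsoLCA, IsoAlloLCA, TCA and TCDCA against control, for IsoAlloLCA against IsoLCA and against LCA, and for TCA against TCDCA. For DehydroLCA against control (1 called) it was 2 in a fit of the 6 libraries, 0 under RLE size factors, 0 without the filter, 3 after the GC and length correction, 3 with that correction and the replicate block, and 0 to 1 with a library left out. For UDCA against control (2 called) it was 9 after the GC and length correction, 10 with that correction and the replicate block, and 0 to 4 with a library left out. For DehydroLCA against LCA (4 called) it was 8 in a fit of the 6 libraries and 0 to 4 with a library left out. It was 4 to 13 for IsoLCA against LCA (12 called) and 6 to 15 for UDCA against LCA (14 called) with a library left out. The causes were not tested, except that leaving out libraries reduces the samples.

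The difference of the core and cap medians (log2) with a library left out was -0.144 to -0.127 for LCA, -0.0341 to -0.0163 for IsoLCA, -0.0308 to -0.0171 for TCA and, changing sign, -0.0387 to 0.00796 for UDCA (-0.0109 with all libraries), and -0.0158 for TCA after the GC and length correction. With a library left out, the log2 ratio of Psmb9 to Psmb6 under DehydroLCA minus control was -0.143 to -0.0869, and that of Psmb10 to Psmb7 was -0.183 to -0.127. Of the differences near 0, Psmb9 to Psmb6 was -0.0934 to -0.00917 under UDCA and -0.0430 to 0.0158 under TCA, and Psmb10 to Psmb7 was -0.0473 to 0.0133 under UDCA, -0.0143 to 0.0412 under TCA and 0.0397 to 0.101 under TCDCA. Their sign changed under TCA for both ratios and under UDCA for the latter. Where a library was left out, the group of 2 shared the spread of the other groups.

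The replicate numbers did not pair the samples over the series: 6 of 39 correlations between same-numbered samples exceeded 0.1, and in 0 comparisons did every pair. All 6 lay among LCA, IsoLCA and IsoAlloLCA, at replicates 1 and 2 (0.148 to 0.396). Same-numbered libraries of these groups therefore shared deviations, which the fit without a block left out of account. With control, the correlations at replicate 1 were negative instead. They were -0.240 for LCA, -0.307 for IsoLCA, -0.328 for IsoAlloLCA and -0.159 for TCA. A block gives same-numbered libraries of all groups 1 shared shift, so it cannot describe deviations of opposite sign. With the replicate block, 11 members were called under LCA, 3 under IsoLCA, 33 under IsoAlloLCA, 1 under DehydroLCA, 2 under UDCA and 0 under TCA and TCDCA. Depth limits Psma8 and Psmb11, not the core and cap genes.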
